A study of Homo sapiens with 6 samples.

Results

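The SLITRK and LRRTM families encode leucine-rich repeat proteins that sit in the neuronal membrane and take part in building synapses. They were followed in the human neuroblastoma line SH-SY5Y as 10 genes picked by symbol (SLITRK1 to SLITRK6 and LRRTM1 to LRRTM4) out of the 26372 gene symbols measured. All 10 symbols were found. The set was put together because SLITRK6 was among the largest increases in the same comparison, so the values of all 10 genes between the groups are given as a description. No p-value is given for any of them, and a count of members past a threshold is no test of the set.

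The cells carried a lentiviral short hairpin RNA under a U6 promoter, either shTDP43, directed against TDP-43, or shNC, labelled control. The treatment protocol, which is the same text for both groups, gives puromycin at 2 µg/mL over 2 weeks to select stable knockdown cells and 1 µg/mL to maintain them. Each group had 3 directional libraries of poly(A) RNA. The labels do not say whether these came from separate cultures or infections, so the p-values rest on the scatter among these libraries, which may be no more than technical. There is 1 hairpin against TDP-43 and no rescue, so an effect of TDP-43 cannot be told apart from other effects of the hairpin or from a difference between the 2 infected populations. In bulk RNA, fewer cells that express a gene and less RNA per cell cannot be told apart either.

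SLITRK proteins carry extracellular leucine-rich repeats, and several bind receptor-type tyrosine phosphatases of the LAR class (PTPRD, PTPRS, PTPRF) on the facing axon. LRRTM proteins sit on the postsynaptic side and bind presynaptic neurexins, and LRRTM4 also binds heparan sulphate proteoglycans such as glypicans. Both families can induce presynaptic differentiation in contacting axons. TDP-43, encoded by TARDBP, is a nuclear RNA-binding protein that prefers UG-rich RNA.

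The regions around the annotated start sites of SLITRK6, LRRTM1 and LRRTM2 are shown because SLITRK6 and LRRTM1 were the members that stood higher in shTDP43 cells and the start of LRRTM2 lies beside that of another gene. Each sequence runs 5′ to 3′ on the gene's own strand, from 250 bases before the start to 50 after it, and comes from RefSeq on GRCh38.p14. Capitals mark TGACTCA read on the opposite strand in SLITRK6 (minus strand, chr13:85799370-85799669), CANNTG in LRRTM1 (minus strand, chr2:80304703-80305002) and TGACGTCA in LRRTM2 (minus strand, chr5:138875286-138875585).
SLITRK6: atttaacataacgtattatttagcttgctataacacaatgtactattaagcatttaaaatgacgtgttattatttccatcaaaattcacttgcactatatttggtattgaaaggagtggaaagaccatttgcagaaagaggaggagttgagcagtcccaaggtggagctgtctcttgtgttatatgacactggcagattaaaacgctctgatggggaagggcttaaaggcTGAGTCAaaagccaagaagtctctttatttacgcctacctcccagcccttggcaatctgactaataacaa
LRRTM1: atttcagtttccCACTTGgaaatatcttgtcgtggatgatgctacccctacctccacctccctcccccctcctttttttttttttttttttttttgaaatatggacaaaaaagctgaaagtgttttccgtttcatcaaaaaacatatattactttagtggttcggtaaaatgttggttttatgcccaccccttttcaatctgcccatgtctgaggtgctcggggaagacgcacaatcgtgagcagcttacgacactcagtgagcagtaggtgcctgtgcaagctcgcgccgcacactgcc
LRRTM2: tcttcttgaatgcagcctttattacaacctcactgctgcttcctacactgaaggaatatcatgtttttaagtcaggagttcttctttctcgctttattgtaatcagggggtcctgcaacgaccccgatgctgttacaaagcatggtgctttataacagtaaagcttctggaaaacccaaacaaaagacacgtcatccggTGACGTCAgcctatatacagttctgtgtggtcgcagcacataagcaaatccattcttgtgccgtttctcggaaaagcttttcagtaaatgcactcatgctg
All 3 windows were AT-rich. GC content was 38.7% for SLITRK6, 44.7% for LRRTM1 and 43.3% for LRRTM2, against a median of 58.7% over 35114 RefSeq start windows, and only 9.1% of those windows had a lower GC content than that of SLITRK6.

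Gene levels are given in FPKM, fragments scaled to transcript length and library size, which allows levels of different genes to be set beside each other. TARDBP, the targeted gene, had 36.0, 33.1 and 34.8 FPKM in shTDP43 libraries and 56.1, 56.2 and 56.6 FPKM in shNC libraries. It stood at 61.5% of the shNC level (log2 difference -0.69, SE 0.0322; limma adjusted p = 2.84e-06; exact two-sided permutation p = 0.1, the smallest that 3 against 3 can give). The values hold no read totals, so absolute depth is unknown. Judged from genes with very low values, depth relative to shTDP43 replicate 1 was 1 to 1.12 in the shTDP43 libraries and 1.16 to 1.27 in the shNC libraries, so depth and group cannot be told apart for genes near 0. The short RNA SNORD3A was at 8551 FPKM in shTDP43 replicate 3 and 11541 FPKM in shNC replicate 1, against 137209 to 552747 FPKM in the other 4 libraries. With both of those left out, the log2 difference was 2.198 for SLITRK6, 1.30 for LRRTM1, -0.33 for LRRTM2 and -1.45 for LRRTM4. For the marker counts that follow, 18.5% of all tested genes rose and 19.6% fell at a limma adjusted p under 0.05. Of 11 tested markers of the noradrenergic neuroblastoma type, 7 rose and 3 fell, and their summed level was 1669 to 1722 FPKM in shTDP43 and 1622 to 1634 FPKM in shNC libraries. TH, which encodes the enzyme that begins catecholamine synthesis, reached at most 0.207 FPKM in shTDP43 and 0.0763 FPKM in shNC libraries. Of 8 tested neuronal markers, 2 rose and 5 fell, with a summed level of 813 to 824 FPKM in shTDP43 and 1274 to 1286 FPKM in shNC libraries. Most of the difference between these sums lay in a single gene among those that fell, so the sums do not describe the neuronal markers as a whole. Of 8 tested mesenchymal markers 7 fell and 1 rose, with a summed level of 358 to 375 FPKM in shTDP43 and 353 to 360 FPKM in shNC libraries. Most of that sum was TWIST1, which rose to 267 ± 8.34 FPKM in shTDP43 cells, against 184 ± 3.23 FPKM in shNC cells, whereas VIM fell to 84.9 ± 0.363 FPKM in shTDP43 cells, against 129 ± 0.381 FPKM in shNC cells (SD, n = 3 each). The mesenchymal regulator PRRX1 was listed at 0 in all shTDP43 libraries and in 2 of 3 shNC libraries, with 0.0115 FPKM in shNC replicate 3. Only S100B and PMP22 of the 10 markers of Schwann cells and glia were tested, and both fell, and the glial regulator OLIG2 was listed at 0 in all libraries. The 10 had a summed level of 9.23 to 9.45 FPKM in shTDP43 and 19.8 to 21.3 FPKM in shNC libraries. The 12 blood, endothelial and epithelial markers, of which 2 were tested and 1 fell, summed to 2.32 to 3.05 FPKM in shTDP43 and 3.56 to 4.74 FPKM in shNC libraries, with CD3E listed at 0 in all. What part these marker changes have in the results below was not tested.

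The families were expressed through a few members. Testing required 1 FPKM or more on average across all libraries, which SLITRK6, LRRTM2, LRRTM4 and LRRTM1 reached, so 4 of 10 members were tested (1 of 6 SLITRK genes and 3 of 4 LRRTM genes). SLITRK5, SLITRK3 and LRRTM3 lay under it. LRRTM1 reached it only through the shTDP43 libraries, with a mean of 3.16 FPKM there and 0.835 FPKM in shNC libraries. SLITRK5 was not tested, though its shNC mean of 1.07 FPKM was above that of LRRTM1. SLITRK1, SLITRK2 and SLITRK4 were listed at 0 in all 6 libraries. An exact 0 in this table can be a failed estimate, because the abundant nuclear RNA MALAT1 was also listed at 0 in every library.

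**Figure D1:**
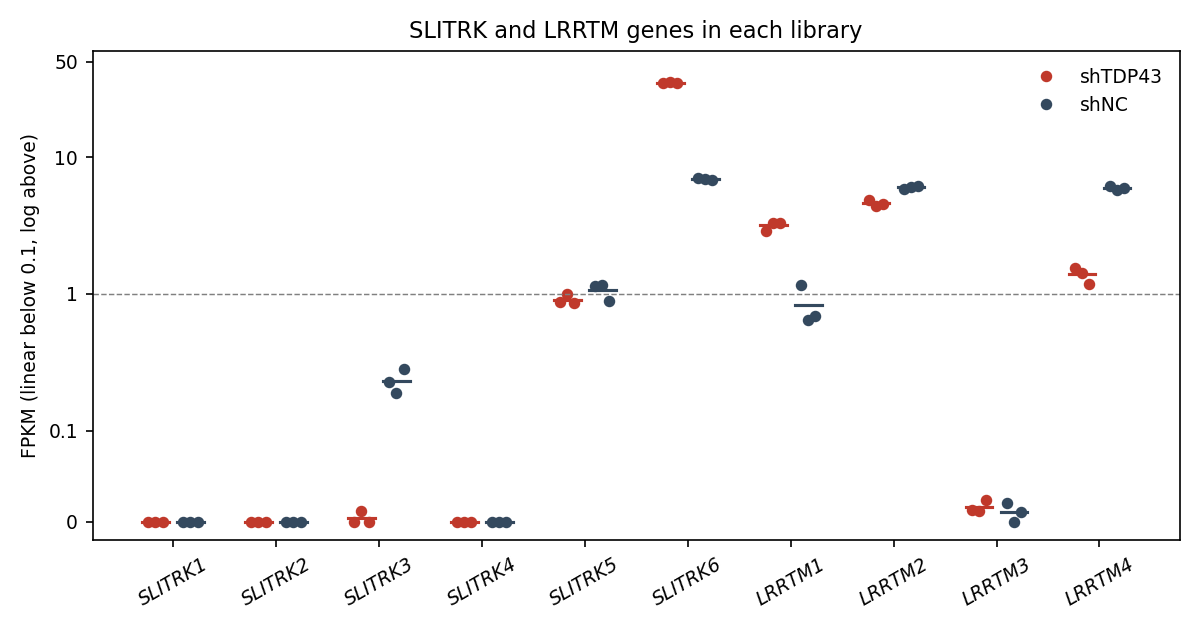
FPKM of the 10 SLITRK and LRRTM genes in each shTDP43 (red) and shNC (dark) library; points are libraries, short bars are means of 3, the vertical axis is linear below 0.1 and logarithmic above, and the dashed line marks 1 FPKM. SLITRK6 and LRRTM1 stand higher in all 3 shTDP43 libraries, LRRTM2, LRRTM4 and SLITRK3 lower, and SLITRK5 and LRRTM3 overlap.

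In shTDP43 cells the order of mean levels was SLITRK6, LRRTM2, LRRTM1, LRRTM4, SLITRK5, LRRTM3 and SLITRK3, and each of the first 5 was separated from the next without overlap of libraries. In shNC cells it was SLITRK6, LRRTM2, LRRTM4, SLITRK5, LRRTM1, SLITRK3 and LRRTM3. There LRRTM2 and LRRTM4 overlapped, as did SLITRK5 and LRRTM1. LRRTM1 thus stood above LRRTM4 in shTDP43 cells, whereas in shNC cells it stood below LRRTM4.

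By the threshold applied to all 13263 tested genes, all 4 tested members were past it, 2 of them higher (SLITRK6 and LRRTM1) and 2 lower (LRRTM2 and LRRTM4). Over all tested genes 38.1% were past it, 18.5% as higher and 19.6% as lower. Because the set was chosen with this comparison in view, nothing is read from that count. LRRTM1 also entered it only through its level in shTDP43 libraries. SLITRK6, LRRTM1 and LRRTM4 also had a log2 difference of at least 1 in size, as did 0.86% of all tested genes (114 genes). The median log2 difference was 0.44 over the 4 tested members and 0.00122 over all tested genes. In each of the 4 tested members the groups did not overlap. Over all tested genes groups did not overlap in 50.7%, with 25.3% higher and 25.4% lower. Among the 6 members not tested, the groups did not overlap in SLITRK3, while the 3 listed at 0 could only overlap. No such share was computed for all genes under the level tested, and nothing is read from these counts either.

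**Figure D2:**
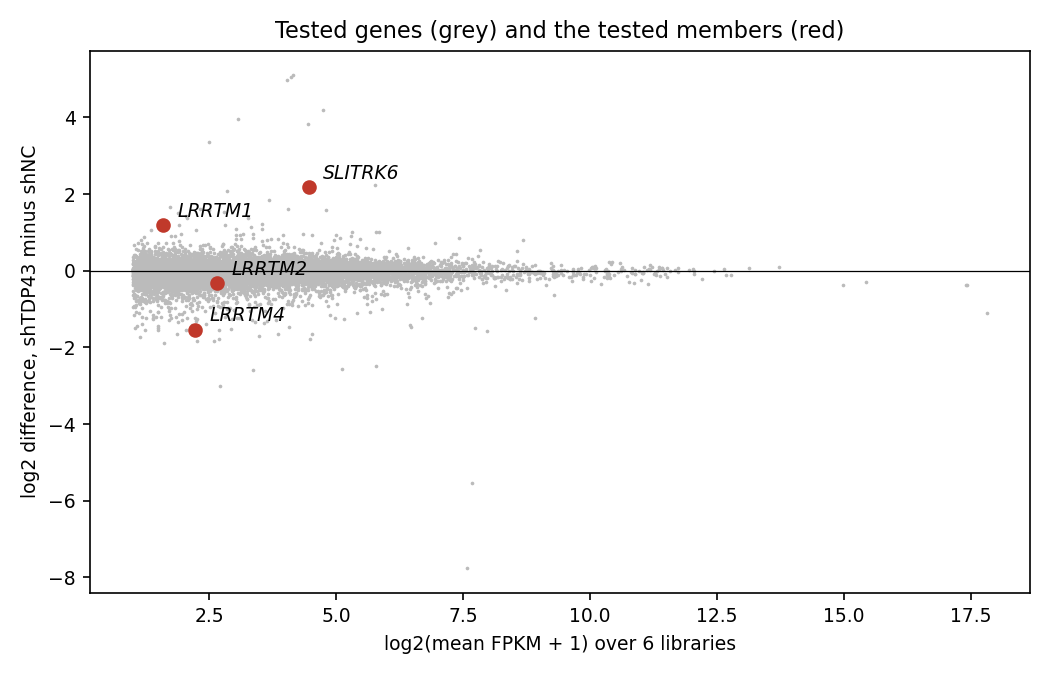
Log2 difference (shTDP43 minus shNC, on the log2(FPKM + 1) scale) against log2 of the mean FPKM + 1 over 6 libraries for 13263 tested genes (grey), with the 4 tested members in red. SLITRK6 ranked 9th from the top and LRRTM4 21st from the bottom.

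SLITRK6 is the family member whose loss in people causes deafness with severe myopia, and it lies on chromosome 13 (GRCh38, 85792790 to 85799419). It had 34.9, 35.4 and 34.8 FPKM in shTDP43 libraries and 7.08, 6.95 and 6.82 FPKM in shNC libraries. Every shTDP43 library was thus near 35 FPKM and every shNC library near 7 FPKM, with wide separation. The means were 35.0 ± 0.308 FPKM in shTDP43 and 6.95 ± 0.129 FPKM in shNC cells (SD, n = 3 each), a ratio of 5.04, and the log2 difference was 2.18 (SE 0.0311). This was the 9th highest of the tested genes. Leaving out any library in turn gave a ratio between 5.00 and 5.09.

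SLITRK5, which acts with the neurotrophin receptor TrkB in mouse striatal neurons, lies on the same arm of chromosome 13 (87671371 to 87679616). It had 0.868, 0.99 and 0.855 FPKM in shTDP43 libraries and 1.14, 1.17 and 0.892 FPKM in shNC libraries. The groups overlapped through shNC replicate 3, and the mean was 84.8% of the shNC level. SLITRK1 (83877205 to 83882474), another SLITRK gene there, was listed at 0 in all libraries. The chromosome 13 members therefore had very unequal levels in the same cells.

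SLITRK3, which induces inhibitory synapses through PTPRD, lies on chromosome 3 (165186720 to 165197109). It was listed at 0, 0.0113 and 0 FPKM in shTDP43 libraries and had 0.225, 0.187 and 0.282 FPKM in shNC libraries. The groups did not overlap, at levels far under 1 FPKM, and the shNC libraries were also the deeper ones, by at most 1.27 to 1 on the scale of relative depth. No fold is given, because 2 of the shTDP43 values are exact zeros. SLITRK2 (145817829 to 145829856) and SLITRK4 (143622790 to 143636101) lie on chromosome X and were listed at 0 in every library.

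Within the family, SLITRK6 made up 97.5% ± 0.197 of the summed SLITRK level in shTDP43 cells and 84.3% ± 0.903 in shNC cells (SD, n = 3 each). SLITRK5 accounted for 2.51% ± 0.179 in shTDP43 cells and 12.9% ± 1.54 in shNC cells. The sum itself was 36.0 ± 0.388 FPKM in shTDP43 cells and 8.25 ± 0.23 FPKM in shNC cells. These shares take SLITRK1, SLITRK2 and SLITRK4 at their listed 0, which can be a failed estimate, so they hold only for the values as listed.

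Among the LRRTM genes, LRRTM1, a neurexin-binding organiser of excitatory synapses, stood higher. It had 2.88, 3.33 and 3.28 FPKM in shTDP43 libraries and 1.17, 0.648 and 0.689 FPKM in shNC libraries. All shTDP43 libraries lay above all shNC libraries, and shNC replicate 1 stood apart from the other 2 controls. The means were 3.16 ± 0.246 FPKM in shTDP43 and 0.835 ± 0.29 FPKM in shNC cells (SD, n = 3 each), a ratio of 3.79, with a log2 difference of 1.19 (SE 0.117). The ratio was 4.73 without shNC replicate 1 and 3.41 without shNC replicate 2. The log2 difference depends on the pseudocount, the constant added before the logarithm, and was 1.84 with a pseudocount of 0.1 in place of 1.

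LRRTM4, the glypican-binding member, stood lower. It had 1.55, 1.43 and 1.18 FPKM in shTDP43 libraries and 6.14, 5.72 and 5.91 FPKM in shNC libraries. The groups were far apart, with no shTDP43 library near any shNC library. The means were 1.39 ± 0.186 FPKM in shTDP43 and 5.93 ± 0.211 FPKM in shNC cells (SD, n = 3 each), which is 23.4% of the shNC level, and the log2 difference was -1.54 (SE 0.0751), the 21st lowest of the tested genes. Leaving out any library in turn gave at most 25.1%. In GENCODE 29 the antisense gene AC079117.1 overlaps LRRTM4 over 23827 of the 845601 bases of LRRTM4. Overlap of their exons was not examined and the strand setting of the counting is not known. Whether the 2 genes share reads is therefore not known.

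LRRTM2, which binds the same neurexins, differed less. It had 4.89, 4.40 and 4.55 FPKM in shTDP43 libraries and 5.81, 6.09 and 6.11 FPKM in shNC libraries. The groups did not overlap, and the mean was 4.61 ± 0.25 FPKM in shTDP43 cells and 6.00 ± 0.169 FPKM in shNC cells (SD, n = 3 each), 76.8% of the shNC level, with a log2 difference of -0.32 (SE 0.0542). LRRTM3, on chromosome 10, had 0.013, 0.0116 and 0.0237 FPKM in shTDP43 libraries and 0.0203, 0 and 0.0112 FPKM in shNC libraries. These values overlap and sit at the bottom of the table's range.

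The LRRTM sum was 9.18 ± 0.144 FPKM in shTDP43 cells and 12.8 ± 0.342 FPKM in shNC cells (SD, n = 3 each). The make-up of that sum differed between the groups. LRRTM1 contributed 34.5% ± 3.13 in shTDP43 cells and 6.50% ± 2.07 in shNC cells. LRRTM4 contributed 15.1% ± 1.81 in shTDP43 cells and 46.4% ± 0.422 in shNC cells. LRRTM2 contributed 50.2% ± 2.21 in shTDP43 cells and 47.0% ± 2.49 in shNC cells.

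**Figure D3:**
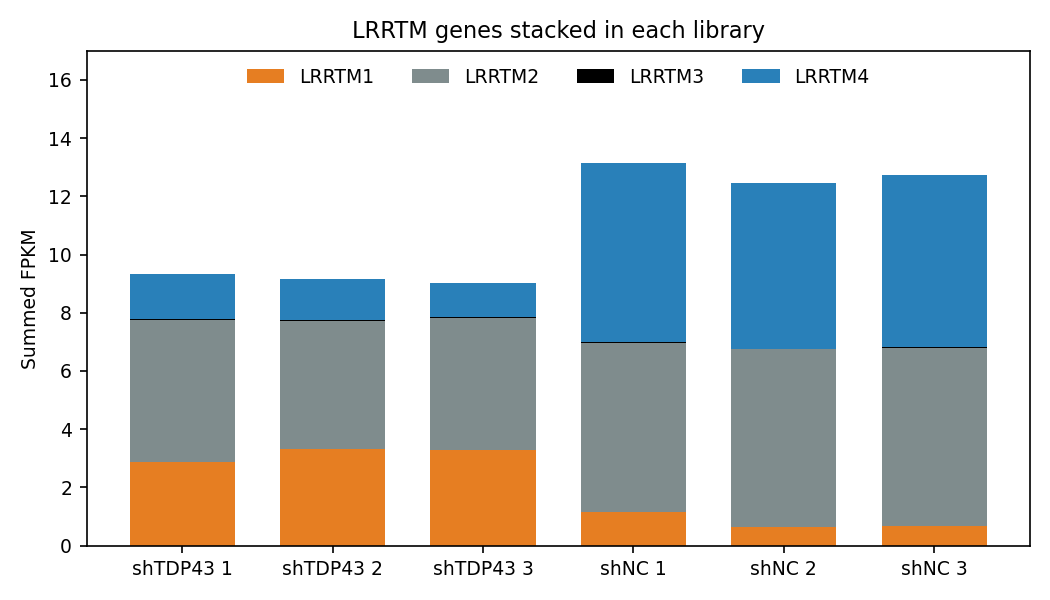
FPKM of LRRTM1 (orange), LRRTM2 (grey), LRRTM3 (black, barely visible) and LRRTM4 (blue) stacked in each of the 3 shTDP43 and 3 shNC libraries. The stacks are 9.04 to 9.33 FPKM high in shTDP43 and 12.5 to 13.1 FPKM high in shNC libraries, with more LRRTM1 and less LRRTM4 in each shTDP43 library.

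LRRTM1, LRRTM2 and LRRTM3 lie inside the alpha-catenin genes CTNNA2, CTNNA1 and CTNNA3 on the opposite strand, whereas LRRTM4 lies outside them. Alpha-catenins link cadherins to actin. LRRTM1 (chromosome 2, 80288356 to 80304752) shares 0 exonic bases with CTNNA2 in GENCODE 29. CTNNA2 had 19.4, 20.5 and 19.1 FPKM in shTDP43 libraries and 20.3, 18.9 and 20.1 FPKM in shNC libraries. Its groups overlapped and it did not pass the test (log2 difference -0.0056, SE 0.0399; limma adjusted p = 0.929), while the gene inside it had 3.79 times the shNC level.

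LRRTM2 (chromosome 5, 138868921 to 138875335) shares 445 exonic bases with CTNNA1, on the other strand. The libraries were directional, but the strand setting of the counting is not known, so reads there could be shared and the LRRTM2 level is uncertain. Alternative starts of CTNNA1 lie 65 and 105 bases from that of LRRTM2 on the other strand, and the window of the nearer one overlaps that of LRRTM2 by 164 bases. CTNNA1 had 47.4, 47.2 and 47.7 FPKM in shTDP43 libraries and between 49.9 and 50.1 FPKM in shNC libraries. It stood at 94.9% of the shNC level (log2 difference -0.074, SE 0.0216; limma adjusted p = 0.0271), but the adjusted p was 0.0559 to 0.072 without each of the 6 libraries in turn. CTNNA3, around LRRTM3, was near 0, at 0, 0 and 0.0363 FPKM in shTDP43 libraries and 0.0463, 0.0466 and 0.017 FPKM in shNC libraries.

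Both strands of the start windows were searched for 6 motifs in the 9 members with a RefSeq entry (16 windows; LRRTM4 had none). TGACTCA, the letters bound by AP-1 factors, was found in the window of SLITRK6 alone, at position -20 from the annotated start, and in 4.95% of all windows. TGACGTCA, the letters of the cAMP response element, was found in that of LRRTM2 alone, at position -51, and in 1.85% of all windows. The LRRTM2 window also held TATAAA, found in 11.5% of all windows. It is read there on the opposite strand and lies further upstream than TGACGTCA. CANNTG, found in 68.7% of all windows, occurred in those of SLITRK6 (2 times) and LRRTM1 (1 time) but not in that of LRRTM2. Among the other members searched, at least 1 window held it in SLITRK1, SLITRK3, SLITRK4, SLITRK5 and LRRTM3, but not in SLITRK2. CCAAT, found in 34.6% of all windows, and GGGCGG were in none of the 3 windows printed above, in which no match overlapped a match to another motif. Elsewhere, CCAAT occurred in windows of SLITRK3 and SLITRK5, and GGGCGG in windows of SLITRK1, SLITRK3, SLITRK4 and SLITRK5. A match of letters does not show that a factor binds there.

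In GENCODE 29, the longest coding transcript of SLITRK6 (4321 bases) holds no TGTGTG, written as DNA for the UG-rich letters that TDP-43 prefers, and neither do the longest ones of SLITRK3, LRRTM2 and LRRTM4. That of LRRTM1 (2599 bases) holds 1. Shorter coding transcripts of LRRTM2 (1 of 3) and LRRTM4 (1 of 6) do hold it. SLITRK4, listed at 0, has 25 matches in 8545 bases. SLITRK5, above 0 in all 6 libraries, has 10 in 21103 bases, and SLITRK2, listed at 0, has 3 in 8418 bases. The longest coding transcripts of SLITRK1 and LRRTM3 hold none. Among 19669 genes 65.2% have at least 1 match in the longest coding transcript, and 84.5% of those between 4000 and 6000 bases long do. Introns were not searched.

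The nearest tested protein-coding genes to the members changed in both directions, more often higher than lower. Taking the 3 nearest on each side of each member, up to 10692 kb away, gave 37 genes. Of these 11 were higher, 5 lower and 21 did not pass. Thus 43.2% passed, against 38.1% of all tested genes (18.5% higher and 19.6% lower). The cause of these changes was not tested. SLITRK6 stands in a wide interval without other tested genes. Its nearest tested neighbour towards lower coordinates, 5452 kb away, was SPRY2, an inhibitor of receptor tyrosine kinase signalling. SPRY2 rose to 28.9 ± 0.855 FPKM in shTDP43 cells, against 19.7 ± 1.03 FPKM in shNC cells (SD, n = 3 each; log2 difference 0.53, limma adjusted p = 4.73e-05). On the other side, 5599 kb away, was the glypican gene GPC5, which rose as well, and beyond it GPC6, which fell. Within 15 Mb of SLITRK6 on either side, 42 protein-coding genes were tested, SLITRK6 included. Of these 13 were higher and 10 lower, where 18.5% of all tested genes were higher and 19.6% lower. SLITRK6 had the highest log2 difference, from which nothing is read because it was chosen for its rise.

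**Figure D4:**
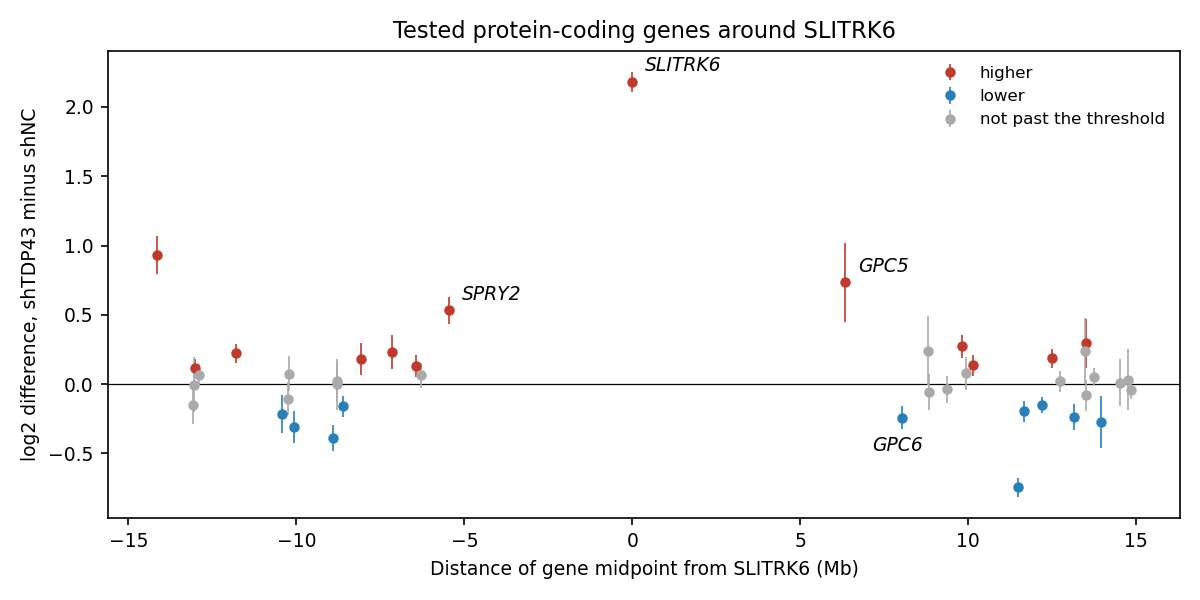
Log2 difference (shTDP43 minus shNC) of the 42 tested protein-coding genes within 15 Mb of SLITRK6, against the distance of each gene's midpoint from it in Mb; bars are limma 95% intervals, red is higher, blue lower and grey not past the threshold. SLITRK6 stands at 2.18, above every other gene in the window, and genes on both sides lie above and below 0.

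Genes for the binding partners and for related adhesion proteins were taken as 59 genes in lists chosen with earlier results known, of which 45 reached the level tested. Of these 7 rose and 17 fell, where 18.5% of all tested genes rose and 19.6% fell, and their median log2 difference was -0.099. LAR-type phosphatases, the axonal receptors of SLITRK proteins, did not move together. PTPRD had 3.80, 3.95 and 3.47 FPKM in shTDP43 libraries and 1.86, 1.77 and 1.60 FPKM in shNC libraries. It rose to 214% of the shNC level (log2 difference 0.79, SE 0.0729; limma adjusted p = 0.000113). PTPRF fell to 89.6% (limma adjusted p = 0.00877, and 0.0696 without shTDP43 replicate 3 and shNC replicate 1 together) and PTPRS to 92.8% (limma adjusted p = 0.0202). PTPRS was the most abundant of the 3, with 50.5 ± 1.09 FPKM in shTDP43 and 54.4 ± 1.43 FPKM in shNC cells (SD, n = 3 each). Its adjusted p was 0.0634, 0.0547 and 0.0724 without shTDP43 replicate 1, shTDP43 replicate 2 and shNC replicate 2.

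Of the neurexins, the presynaptic partners of LRRTM proteins, NRXN2 averaged 11.2 FPKM in shTDP43 and 11.1 FPKM in shNC cells and did not pass (log2 difference 0.0099, 95% interval -0.085 to 0.10; limma adjusted p = 0.873). Among 5 tested glypicans 1 rose and 2 fell. GPC5 had 3.09, 2.91 and 2.63 FPKM in shTDP43 libraries and 1.82, 1.05 and 1.17 FPKM in shNC libraries, 213% of the shNC level (limma adjusted p = 0.00237), and shNC replicate 1 was the highest control, as for LRRTM1. GPC2 fell to 78.1% (limma adjusted p = 0.000941) and GPC6 to 83.5% (limma adjusted p = 0.00125).

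None of 5 tested genes for other ligands of LAR-type phosphatases (LRRC4B and LRFN1 to LRFN4) passed the limma test at an adjusted p under 0.05. At an unadjusted p under 0.05, 1 of them (LRFN1) passed. Among 10 tested genes for other leucine-rich repeat adhesion proteins 2 rose and 4 fell. FLRT3, which binds latrophilins, rose to 177% of the shNC level (limma adjusted p = 0.000977) and LRRC4, a ligand of netrin-G2, to 139% (limma adjusted p = 0.0013). LINGO1, a component of the Nogo receptor complex, fell to 68.3% (limma adjusted p = 0.00204) and FLRT1 to 78.3% (limma adjusted p = 0.00376).

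Among 10 tested postsynaptic scaffold genes 1 rose and 3 fell. DLG2, which encodes PSD-93, fell to 6.54 ± 0.262 FPKM in shTDP43 cells, against 10.4 ± 0.281 FPKM in shNC cells (SD, n = 3 each), 62.7% of the shNC level (limma adjusted p = 3.65e-05). DLG3, which encodes SAP102, rose to 125% (limma adjusted p = 0.00888), with an adjusted p of 0.0549 without shTDP43 replicate 3 and shNC replicate 1 together. Of 6 tested genes for liprins, the cytoplasmic partners of LAR-type phosphatases, and for the scaffold CASK, 1 rose and 3 fell. PPFIA4 fell to 74.4% (limma adjusted p = 0.0121, and 0.0725 without the same 2 libraries) and PPFIBP2 to 80.6% (limma adjusted p = 0.0224). For PPFIBP2 the adjusted p was up to 0.0772 with 1 library left out, and it was above 0.05 without shTDP43 replicate 1, shTDP43 replicate 3, shNC replicate 1 or shNC replicate 3. NTRK2, which encodes the neurotrophin receptor TrkB, fell to 3.83 ± 0.219 FPKM in shTDP43 cells, against 5.31 ± 0.0762 FPKM in shNC cells (SD, n = 3 each), 72.0% of the shNC level (limma adjusted p = 0.00109).

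**Figure D5:**
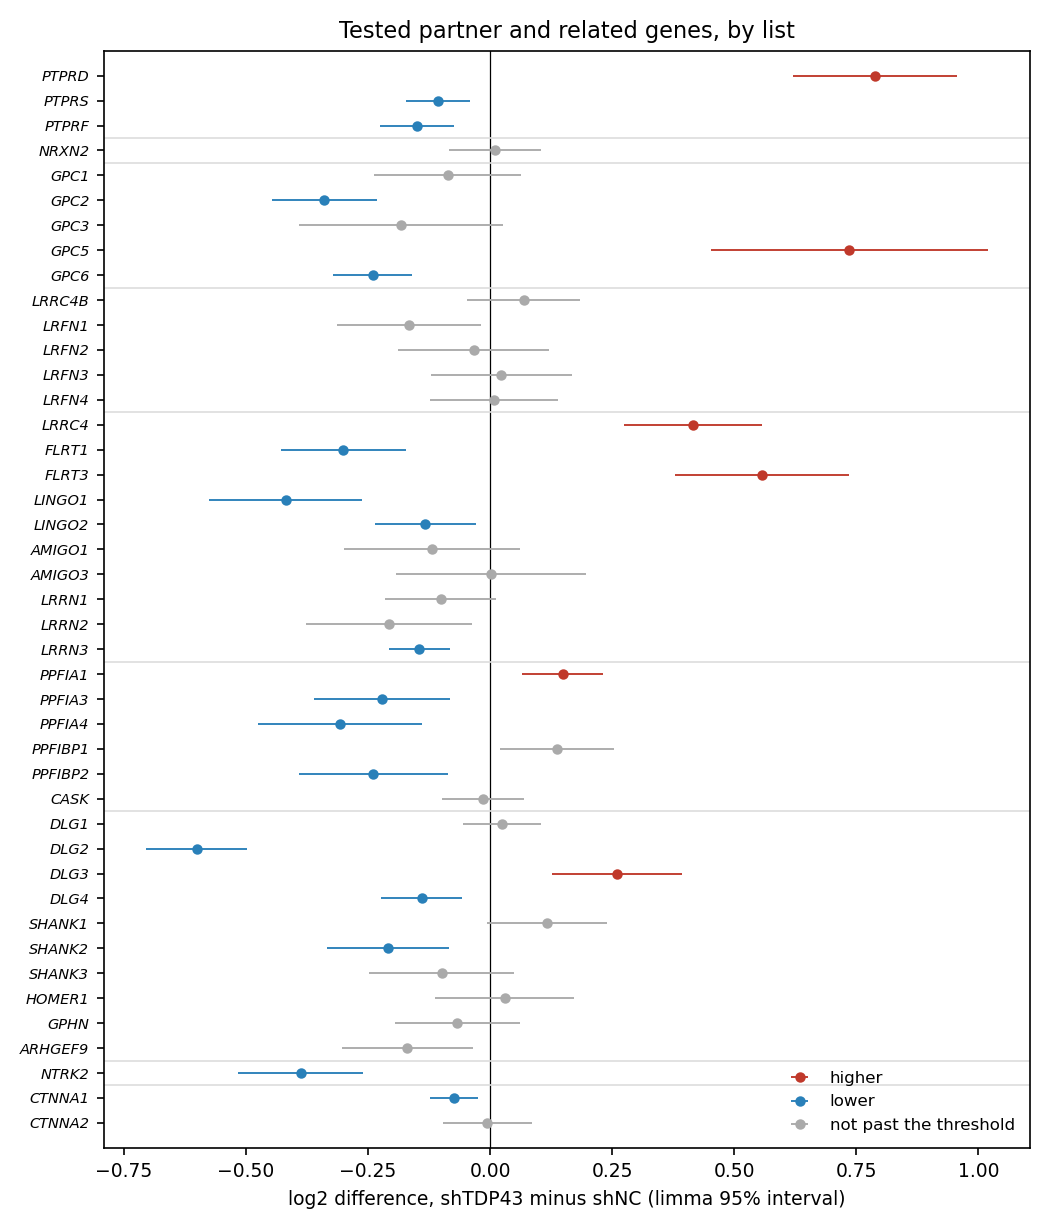
Log2 difference (shTDP43 minus shNC) with limma 95% intervals for tested partner and related genes, grouped by list from LAR-type phosphatases at the top to alpha-catenins at the bottom; red is higher, blue lower and grey not past the threshold. PTPRD and GPC5 lie furthest to the right, at 0.79 and 0.74, and DLG2 lies furthest to the left, at -0.60.

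The 5 tested protein-coding genes whose profile over the 6 libraries lay nearest to that of SLITRK6, by Euclidean distance between centred log2(FPKM + 1) values, were VSNL1 (distance 0.31), GFRA3 (0.45), CNTNAP4 (0.65), GRM8 (0.71) and KIAA1324 (0.71). Their levels in shTDP43 cells ranged from 4.01 FPKM for CNTNAP4 to 24.0 FPKM for GRM8, and in shNC cells from 0.576 FPKM for CNTNAP4 to 7.20 FPKM for GRM8. The difference between the groups makes up nearly all of each profile, so the measure mainly finds genes with a rise of like size.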

How the data were processed

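The authors deposited 1 table of FPKM values per gene and library for all 6 libraries. Per the submitters' processing notes, the tools were TopHat2 2.1.0, SAMtools and Cuffdiff 2.2.1, with build hg38. Annotation, strand setting, scaling and the handling of multiply matching reads were not given in the sources used here. The unit is taken from the table's name and values.

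Because the table holds no counts, limma 3.58.1 in R 4.3.3 was run on log2(FPKM + 1). The 13263 genes averaging 1 FPKM or more were fitted with group as the only term, with variances moderated along a trend on level, two-sided tests and Benjamini-Hochberg adjustment over all tested genes. Differences are shTDP43 minus shNC on this scale, which understates changes of low genes. Folds and percentages are ratios of mean FPKM. The fit was checked on simulated data. Relative depth came from the most frequent ratio between libraries over 1655 genes with low values above 0 in all libraries and is rough.

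The members, lists and alternatives were chosen with earlier results of these data known. Genes named are every member, TARDBP, list genes past the threshold with a log2 size of at least 0.5, the 2 largest changes past the threshold in each list, the 5 genes most like SLITRK6 and its nearest neighbours. Others named from the lists were chosen after their values were seen. Positions and start windows are from RefSeq (GRCh38.p14, the assembly that hg38 names), matched by 23640 current and 1525 older symbols, and transcripts and exons from GENCODE 29. No protein sequences were used here, and a few list genes that enter the counts are not reported here by name. Alternatives were another pseudocount, no filter or a filter at 5 FPKM, quantile or median scaling, a replicate block, no variance trend, and libraries left out.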

Additional observations from a re-analysis of the deposited data

How the results depend on the processing

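As a description, with no support drawn from it because the set was chosen on this comparison, the log2 differences over the alternatives (14 for SLITRK6 and LRRTM2, and 13 for LRRTM1 and LRRTM4) ran from 2.17 to 2.32 for SLITRK6, from 1.12 to 1.84 for LRRTM1, from -0.37 to -0.29 for LRRTM2 and from -2.03 to -1.45 for LRRTM4. With a mean of at least 5 FPKM required, 2 members were tested and past the threshold, since LRRTM1 and LRRTM4 lie under that level. In that fit 14 of 25 tested partner genes passed, beside 4113 of all 9585 tested genes. Without a filter, SLITRK3 passed as lower (log2 difference -0.29), which makes 5 of 7 tested members, beside 4901 of all 19907 tested genes. Without shTDP43 replicate 3 and shNC replicate 1 together, which leaves fewer samples, 3323 of all 13259 tested genes and 15 of 45 tested partner genes passed. CTNNA1 was lost (0 host genes past the threshold) with quantile normalization, the replicate block, no variance trend, both of those libraries left out or any single library left out (0 in each). CTNNA2, which never passed, changed sign, with 0.033 without both of those libraries and -0.036 to 0.014 without 1 library. The cause of these changes was not tested. Of 24 partner genes past the threshold, 14 passed in all alternatives that tested them.

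Quantile normalization gave 2693 genes higher and 2374 lower, against 2448 and 2606 in the fit reported, and the median of all genes was 0.018. With the replicate block, 4502 of all 13263 tested genes, the 4 tested members and 21 of 45 tested partner genes passed. Deviations of same-numbered libraries correlated at -0.068, 0.064 and 0.112, so the numbers were not taken to pair the samples. For LRRTM3 and the members listed at 0, no difference was detectable at these levels. What part depth or failed estimates have in this was not tested.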

Other observations

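Of the 59 partner and related genes, 14 lay under the level needed for testing, and in 5 of these the groups did not overlap. Over all tested genes the groups did not overlap in 50.7%. No such share was computed for all genes under that level, so nothing is read from this count. LRRC4C, which encodes the netrin-G1 ligand, had 0.446, 0.548 and 0.442 FPKM in shTDP43 libraries and 0.153, 0.0333 and 0.0613 FPKM in shNC libraries. NTRK3, a neurotrophin receptor gene whose product also binds PTPRS, had 0.758, 0.65 and 0.783 FPKM in shTDP43 libraries and 0.575, 0.518 and 0.566 FPKM in shNC libraries. Both were higher in each shTDP43 library.

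The other 3 were lower in each shTDP43 library. NRXN3 had 0.147, 0.141 and 0.196 FPKM in shTDP43 libraries and 0.337, 0.348 and 0.357 FPKM in shNC libraries. GPC4, a glypican gene whose product binds LRRTM4, had 0.521 ± 0.0348 FPKM in shTDP43 and 0.858 ± 0.0923 FPKM in shNC cells (SD, n = 3 each). LINGO4 had 0.0624, 0.112 and 0.19 FPKM in shTDP43 libraries and 0.537, 0.327 and 0.233 FPKM in shNC libraries. IL1RAPL1, IL1RAP and FLRT2 were listed at 0 in all 6 libraries. These genes were picked out after their values were seen, and none was tested.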
